A study of Mus musculus with 6 samples.

Results

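Amino acid transporters were examined in mouse precursor B cells transformed by BCR-ABL1, a fusion oncogene that drives Ph+ acute lymphoblastic leukaemia (ALL). The members were all genes whose symbol starts with Slc1a, Slc3a, Slc6a, Slc7a, Slc36a, Slc38a or Slc43a, and they numbered 64 of the 19938 genes tested. Symbol prefixes chose them, and 2 of the 64 (Slc7a6os and Slc6a19os) are neighbouring or opposite-strand genes that carry a family prefix and are not themselves carriers of these families. The Slc6a family also holds carriers of monoamines, creatine, betaine and GABA, so not every member moves amino acids.

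Total RNA was hybridised to Affymetrix arrays, with 3 arrays of Dusp6 WT cells and 3 of Dusp6 KO cells. Dusp6 encodes a phosphatase that removes the activating phosphates from ERK. Cells of both genotypes carried BCR-ABL1 and came from the same labelled strain background, C57Bl/6-SV129j. The labels give neither the ages nor the deleted part of Dusp6, and they do not say whether arrays of a genotype came from separate mice or cultures, so p-values measure the spread between these arrays, which may be technical. The Dusp6 signal itself was 12.36, 12.46 and 12.49 on the WT arrays and 9.04, 9.06 and 9.15 on the KO arrays.

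Cells take up amino acids through families of membrane carriers. Slc7a light chains pair with a heavy chain, Slc3a2 (CD98) or Slc3a1, and exchange one amino acid for another, while Slc1a, Slc38a and Slc6a carriers use ion gradients. Activated and transformed lymphocytes depend on this uptake for protein synthesis and for signalling by mTORC1, and the factor ATF4 raises several of the carrier genes when amino acids run short.

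All values are signals on a log2 scale, and all differences are Dusp6 KO minus Dusp6 WT. A gene was called at a limma p adjusted over all 19938 genes below 0.05. Brightness of a probe set does not rank RNA levels between genes, so signals are compared here within a gene. In bulk RNA, a change in every cell and a change in the share of some cells cannot be told apart.

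Slc1a5, a sodium-dependent exchanger of glutamine and other neutral amino acids (ASCT2), had the largest difference among the 64 members and rose 2.93-fold in KO cells. Slc43a2, a facilitator of branched-chain and aromatic amino acids (LAT4), rose 1.48-fold. Slc36a4 (PAT4) fell 1.67-fold, the glycine carrier Slc6a9 (GlyT1) fell 1.45-fold and Slc1a4 (ASCT1) fell 1.30-fold. In all, 6 members rose and 5 fell, or 17.2% of the 64, and 53 were not called. With each array centred on its median the split was 5 higher and 8 lower, and with every probe set tested it was 5 higher and 3 lower. At an unadjusted p under 0.05, 10 of the 64 were higher and 9 lower, beside 2978 higher and 3114 lower of all 19938 genes. Of all genes tested, 19.8% were called, 9.66% as higher and 10.2% as lower, so the share of transporters called was near the background. The median difference was 0.0092 over the members and 0.0018 over all genes. Slc1a5 was the single member past 2-fold, a size reached by 258 of all genes.

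**Figure D1:**
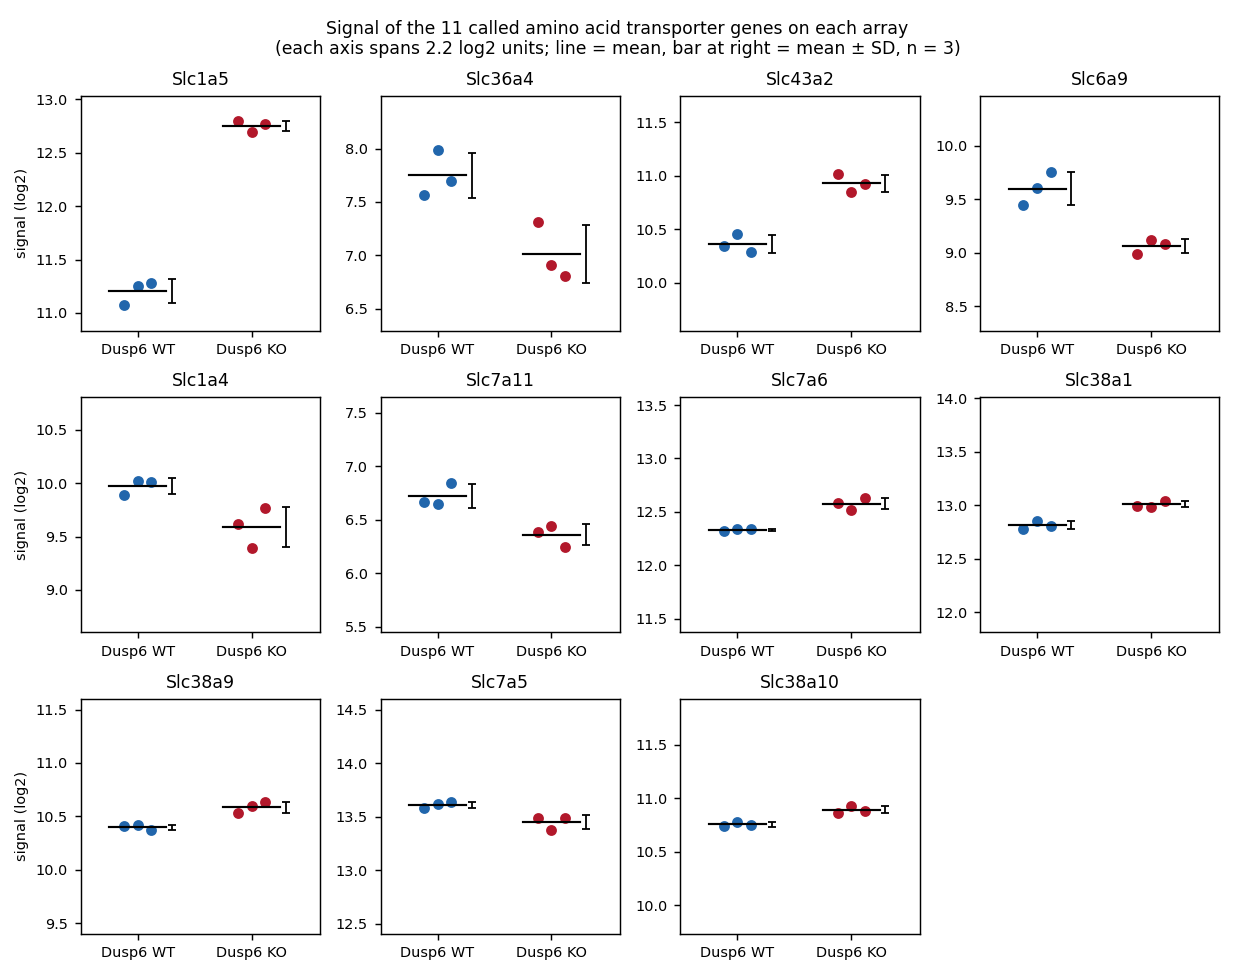
Signal (log2) of the 11 called transporter genes on each array, with Dusp6 WT in blue and Dusp6 KO in red; lines are means, bars at the right are mean ± SD over 3 arrays, and every axis spans 2.2 log2 units. In each of the 11 genes the 3 WT and 3 KO points do not overlap, and Slc1a5 has the widest gap.

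The promoters of 2 of the genes that fell are shown because they hold the letters of the C/EBP-ATF response element (CARE), the site that ATF4 is known to bind. Slc7a11 is the light chain of the cystine-glutamate exchanger, and Slc1a4 carries serine, alanine, cysteine and threonine. Sequences are from RefSeq, build GRCm38.p6, written 5′ to 3′ on the gene's strand. Slc7a11 is given at chr3:50443614-50443763 (minus strand) up to the annotated start, and Slc1a4 at chr11:20332710-20332863 (minus strand), which runs 4 bases past it. Capitals mark TGATGNAA on either strand.
Slc7a11: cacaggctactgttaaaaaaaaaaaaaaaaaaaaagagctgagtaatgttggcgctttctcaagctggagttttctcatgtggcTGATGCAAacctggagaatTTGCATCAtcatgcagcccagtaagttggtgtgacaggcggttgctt
Slc1a4: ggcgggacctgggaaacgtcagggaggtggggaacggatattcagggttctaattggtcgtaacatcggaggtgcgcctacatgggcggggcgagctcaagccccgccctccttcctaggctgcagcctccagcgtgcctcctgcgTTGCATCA
Slc7a11 held 2 matches in opposite orientation, 66 and 47 bases before the start, and the match of Slc1a4 began 4 bases before it.

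Promoter windows of 300 bases (250 before and 50 after a start) were found for 47 of the 64 members, 8 of them called. TGATGNAA lay in a window of 4 of these 47 genes, 2 of them called, and in 4.51% of all genes with a window. The others were Slc6a21 and Slc7a7, which were not called (differences of 0.0029 and 0.11). The E-box CACGTG, the same on both strands, lay in 9 of the 47 genes and in 8.09% of all genes, and in 0 of the 8 called genes with a window. Such matches describe the letters of a window and do not show binding.

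The Slc1a family holds the glutamate carriers and the neutral carriers Slc1a4 and Slc1a5. Slc1a5 gave 11.08, 11.25 and 11.28 on the WT arrays and 12.79, 12.70 and 12.76 on the KO arrays. Every KO array was higher than every WT array by more than 1 log2 unit. The difference was 1.55 ± 0.060 (SE; limma adjusted p = 1.5e-07). It ranged from 1.49 to 1.59 with any 1 array left out.

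Slc1a4, the closest family relative in substrates, went the other way. It gave 9.89, 10.02 and 10.01 in WT and 9.62, 9.39 and 9.76 in KO cells, with every KO array below every WT array. The difference was −0.38 ± 0.086 (SE; limma adjusted p = 0.012), and it missed the threshold when every probe set of the array was tested (limma adjusted p = 0.060). The other 5 members, the glutamate carriers Slc1a1, Slc1a2, Slc1a3, Slc1a6 and Slc1a7, differed by −0.0067 to 0.072 and were not called. Their mean signals lay below the median of all genes (8.62).

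The heavy chain Slc3a2 forms CD98 with a light chain and brings it to the cell surface. It gave 13.69, 13.64 and 13.68 in WT and 13.57, 13.54 and 13.61 in KO cells. The KO arrays lay below the WT arrays, but the difference of −0.100 was not called (95% interval −0.19 to −0.0051; limma adjusted p = 0.14). With a mean-variance trend and robust fit it was (limma adjusted p = 0.020). Slc3a1, the heavy chain of kidney and gut, differed by 0.081 and was not called.

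Of the 10 light chains, 1 rose and 2 fell, where 19.8% of all genes tested were called. Slc7a5 (LAT1), which brings in leucine and other large neutral amino acids, gave 13.58, 13.62 and 13.64 in WT and 13.49, 13.37 and 13.49 in KO cells. The KO arrays were all lower, by a small margin. The difference of −0.16 ± 0.047 (SE; limma adjusted p = 0.041) was near the threshold and lost its call with any 1 array left out except KO replicate 1, and also with the replicate number as a block (limma adjusted p = 0.071).

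Slc7a6 (y+LAT2), an exchanger of cationic for neutral amino acids, gave 12.32, 12.34 and 12.34 in WT and 12.59, 12.52 and 12.63 in KO cells. The WT arrays lay close together, and every KO array was higher. The rise was 0.25 ± 0.043 (SE; limma adjusted p = 0.0031). Its relative Slc7a7 (y+LAT1) was also higher on every KO array, but its difference of 0.11 was not called (limma adjusted p = 0.11). Slc7a6os, the gene next to Slc7a6, gave 10.69, 10.81 and 10.72 in WT and 10.74, 10.73 and 10.76 in KO cells, a difference of 0.0030 with overlapping groups.

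Slc7a11 (xCT) brings in cystine for glutathione. It gave 6.67, 6.65 and 6.85 in WT and 6.39, 6.44 and 6.25 in KO cells. The difference was −0.36 ± 0.068 (SE; limma adjusted p = 0.0045), and the groups did not overlap. Its signal was below the lower quartile of all genes (7.45) on every array and was not tested against background. The other 6 light chains (Slc7a8, Slc7a9, Slc7a10, Slc7a12, Slc7a13 and Slc7a15) differed by −0.11 to −0.0016.

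None of the 5 cationic amino acid transporters (Slc7a1, Slc7a2, Slc7a3, Slc7a4 and Slc7a14) was called by limma, where 19.8% of all genes were called. Of the 5, 0 had an unadjusted p under 0.05, and 1 had a mean signal above the median of genes. Slc7a1 (CAT1), which carries arginine and lysine, gave 12.10, 12.15 and 12.12 in WT and 12.07, 11.93 and 12.07 in KO cells. Its KO arrays lay below its WT arrays, with a difference of −0.097 (95% interval −0.21 to 0.016). Slc7a3 had the lowest difference of this group (−0.12) and Slc7a4 the highest (0.10).

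**Figure D2:**
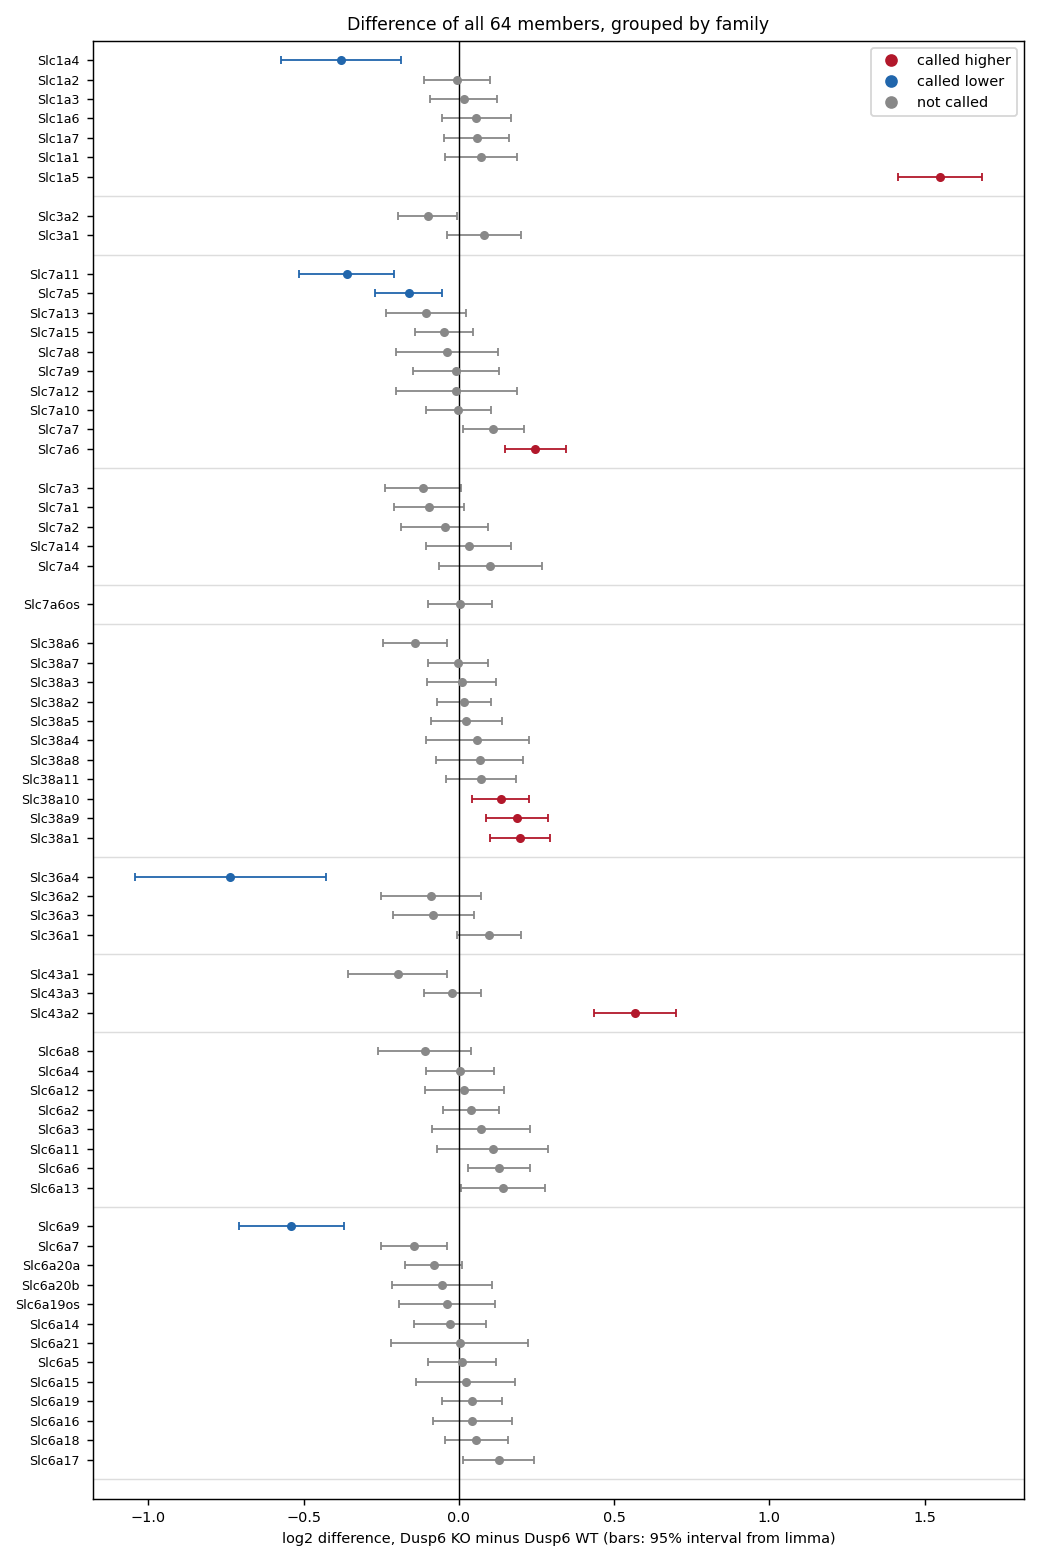
Log2 difference (Dusp6 KO minus Dusp6 WT) of all 64 members with 95% intervals from limma, grouped by family, with called genes in red (higher) or blue (lower). Slc1a5 stands at 1.55, and the 53 members that were not called lie between −0.20 and 0.14.

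Among the 11 sodium-coupled neutral amino acid transporters of the Slc38a family, 3 rose and 0 fell in limma's test (at an unadjusted p under 0.05, Slc38a6 was also lower). Over all genes tested, 9.66% were called higher and 10.2% lower. The calls of Slc38a9 and Slc38a10 depended on the processing, as given below. Slc38a1 (SNAT1), a glutamine carrier, gave 12.78, 12.85 and 12.81 in WT and 12.998, 12.99 and 13.04 in KO cells. All KO arrays were higher, with a rise of 0.20 ± 0.042 (SE; limma adjusted p = 0.0094). A dimmer probe set of the same gene gave a larger difference of the same sign, 0.49 ± 0.066 (SE).

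Slc38a9, a lysosomal carrier that signals arginine to mTORC1, gave 10.41, 10.42 and 10.37 in WT and 10.53, 10.60 and 10.63 in KO cells. By this brighter probe set it rose by 0.19 ± 0.044 (SE; limma adjusted p = 0.015). The call was lost without WT replicate 3 (adjusted p = 0.059) and without KO replicate 3 (adjusted p = 0.063). Its other probe set moved the opposite way, from 8.96, 9.07 and 8.97 to 8.75, 8.73 and 8.82, a difference of −0.23 ± 0.050 (SE). The mean of both probe sets differed by −0.022 (limma adjusted p = 0.79), so the direction for this gene depended on the probe set.

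**Figure D3:**
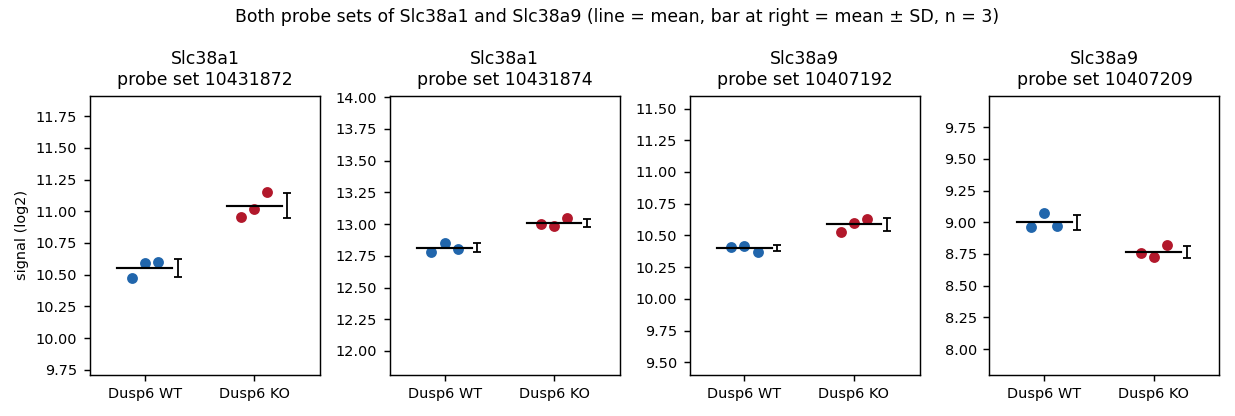
Signal (log2) on each array for both probe sets of Slc38a1 and of Slc38a9, the 2 members with more than 1 probe set; lines are means and bars at the right are mean ± SD over 3 arrays. Both probe sets of Slc38a1 are higher in KO cells, while those of Slc38a9 part in opposite directions.

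Slc38a10, a less studied relative, rose by 0.13 ± 0.041 (SE; limma adjusted p = 0.048). It lost its call with any 1 array left out, and it gave 10.74, 10.78 and 10.75 in WT against 10.86, 10.93 and 10.88 in KO cells. Slc38a2 (SNAT2), the family's best known responder to amino acid shortage, gave 13.73, 13.74 and 13.73 in WT and 13.75, 13.73 and 13.76 in KO cells. The groups overlapped and the difference was 0.016, with a 95% interval of −0.071 to 0.10. Slc38a6 was lower on every KO array (−0.14; limma adjusted p = 0.061). The other 6 (Slc38a3, Slc38a4, Slc38a5, Slc38a7, Slc38a8 and Slc38a11) differed by −0.0029 to 0.071.

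The Slc36a family, named for proton coupling, includes carriers of small amino acids at lysosomal and plasma membranes. Slc36a4 gave 7.56, 7.98 and 7.70 in WT and 7.32, 6.91 and 6.81 in KO cells. Its arrays spread more than those of any other member, with SDs of 0.21 in WT and 0.27 in KO against medians over the members of 0.061 and 0.062, and the groups still did not overlap. It fell by 0.74 ± 0.14 (SE; limma adjusted p = 0.0042), a fall of 0.62 to 0.89 with any 1 array left out. Its mean KO signal (7.01) was below the lower quartile of all genes, so the size is less certain. Slc36a1 (PAT1), a lysosomal carrier linked to mTORC1, gave 9.59, 9.65 and 9.58 in WT and 9.73, 9.64 and 9.74 in KO cells. The groups overlapped, and it differed by 0.097 (95% interval −0.0071 to 0.20), and Slc36a2 and Slc36a3 by −0.089 and −0.082. None of these 3 was called.

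The Slc43a family moves large neutral amino acids without sodium, apart from Slc43a3, which is known as a purine nucleobase carrier. Slc43a2 gave 10.35, 10.45 and 10.29 in WT and 11.01, 10.85 and 10.92 in KO cells. The groups were well separated, and the rise was 0.57 ± 0.059 (SE; limma adjusted p = 0.00011). Slc43a1 (LAT3) was lower on every KO array, from 12.56, 12.59 and 12.53 to 12.51, 12.20 and 12.38. Its difference of −0.20 was not called (limma adjusted p = 0.087), and its KO arrays ranged more widely than its WT arrays. Slc43a3 gave 13.41, 13.46 and 13.43 in WT and 13.43, 13.38 and 13.42 in KO cells, which overlapped (difference −0.022, 95% interval −0.11 to 0.070).

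The Slc6a family gave 1 call among 21 genes, where 19.8% of all genes tested were called. Above the median signal lay 1 of its 8 carriers of monoamines, GABA, creatine, betaine and taurine, and 1 of its other 13 symbols. Over all genes, 5.42% were called below the lower quartile of signal and 12.4% from there to the median. Slc6a9, which takes up glycine, gave 9.44, 9.60 and 9.75 in WT and 8.99, 9.12 and 9.08 in KO cells. All KO arrays were lower, and the fall was 0.54 ± 0.075 (SE; limma adjusted p = 0.00071). Slc6a6, the taurine carrier, was higher on every KO array (11.63, 11.61 and 11.65 against 11.79, 11.69 and 11.79), with a difference of 0.13 that was not called (limma adjusted p = 0.074). The creatine carrier Slc6a8 differed by −0.11 with overlapping groups.

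The monoamine carriers Slc6a2, Slc6a3 and Slc6a4 and the GABA and betaine carriers Slc6a11, Slc6a12 and Slc6a13 differed by 0.0046 to 0.14, and all had mean signals below the median of genes. The remaining 12 symbols of this family differed by −0.15 (the proline carrier Slc6a7) to 0.13 (Slc6a17), and none was called. They included Slc6a14, Slc6a15, Slc6a18, Slc6a19, Slc6a20a and Slc6a20b, carriers of neutral amino acids and proline known from brain, kidney and gut, and the spinal glycine carrier Slc6a5.

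Calls were unevenly spread over the range of signal. Of the 44 members below the median signal of all genes, 2 were called, Slc7a11 and Slc36a4, and both fell. Among the 20 members above it, 6 rose and 3 fell. Over all genes the share called was 5.42% below the lower quartile of signal, 12.4% from there to the median, 34.7% from the median to the upper quartile and 26.8% above that. The 53 members that were not called had 95% intervals within −0.36 to 0.29. In 10 of them the groups did not overlap (3 higher, 7 lower), as in all 11 called members. That makes 21 of 64, and over all genes the share without overlap was 35.7%.

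**Figure D4:**
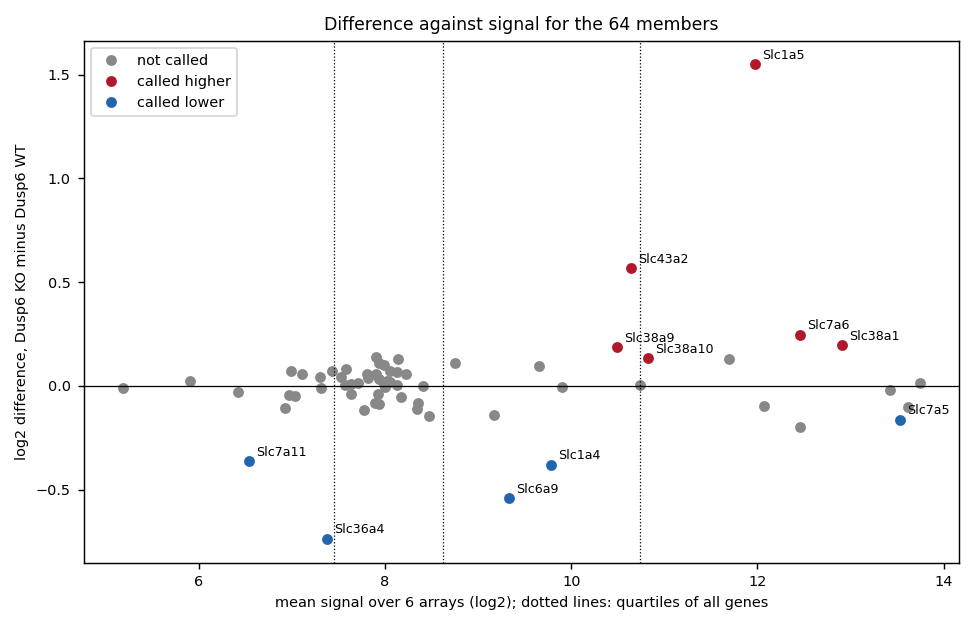
Log2 difference (Dusp6 KO minus Dusp6 WT) against mean signal (log2) for the 64 members, each point 1 gene, with dotted lines at the quartiles of mean signal over all genes. Most points lie near 0 below the median signal, and 9 of the 11 called genes lie above it.

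The arrays of a genotype were close to each other. KO replicate 2 was the lowest KO array in 38 of the 64 members and in 8827 of all genes, and WT replicate 1 the lowest WT array in 32 members and 6814 genes. Over all probe sets, arrays correlated at 0.996 to 0.998 within a genotype and at 0.987 to 0.989 between genotypes. All 13 measured markers of precursor B cells had a mean signal above the median of genes, among them Cd79a, Ebf1 and Pax5. Of the 13, Cd93 and Rag1 were the 2 called higher in KO cells. The 5 called lower were Dntt (−1.42), Rag2, Vpreb1, Blnk and Vpreb2, and Cd79a, Ebf1 and Pax5 were not called. That is 53.8% called, against 19.8% of all genes and 34.7% and 26.8% in the ranges of signal above the median. Of 18 myeloid and mast cell markers 2 lay above the median signal, of 17 T and NK cell markers 3, of 9 erythroid and megakaryocyte markers 1, and of 13 stromal markers 3. Called higher and lower were 2 and 0 of the myeloid list and 4 and 2 of the T and NK list. It was 1 and 0 of the erythroid list and 1 and 0 of the stromal list. The shares called were 11.1%, 35.3%, 11.1% and 7.69% in that order. Most of these markers lay below the median signal, where 5.42% and 12.4% of all genes were called in the ranges given above. Lyz2 of the myeloid list rose by 0.70 and Lyz1 by 0.31, while 7 of the 18 markers had a difference below 0. Among these, Cd68 differed by −0.18 and was not called (limma adjusted p = 0.080). In the T and NK list, Cd2, a gene that mouse B cells also express, rose by 1.02, Klrd1 by 0.61, Cd5 by 0.26 and Cd8b1 by 0.23. The T cell adaptor gene Lat fell by 0.44 and the kinase gene Zap70 by 0.15, and 4 of these 17 markers had a difference below 0. The mean signal of the myeloid list was 7.33 to 7.38 on WT and 7.39 to 7.42 on KO arrays, and that of the T and NK list was 7.56 to 7.58 and 7.66 to 7.72. The part of such markers in the transporter differences was not tested.

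Of 31 enzymes that make or break down amino acids, 2 rose and 11 fell (median −0.051). The share called was 41.9%, against 19.8% of all genes, and 25 of the 31 lay above the median signal, where 34.7% and 26.8% of all genes were called in the ranges given above. Bckdhb, a subunit of the complex that breaks down branched-chain keto acids, fell 2.29-fold, from 12.25, 12.22 and 12.28 to 10.97, 11.08 and 11.12 (limma adjusted p = 2.3e-07). Cth, which makes cysteine from cystathionine, fell by 0.78, the alanine aminotransferase gene Gpt2 fell by 0.58 and the serine synthesis gene Psph fell by 0.34. Got1, an aspartate aminotransferase, and Gldc, of the glycine cleavage system, rose by 0.26 and 0.27.

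Of 31 genes of ATF4 and the amino acid response, 6 rose and 8 fell (median −0.039). The share called was 45.2%, against 19.8% of all genes. Of the 31, 25 lay above the median signal, where 34.7% and 26.8% of all genes were called in the ranges given above. Chac1, which degrades glutathione, fell 2.21-fold, from 10.84, 10.76 and 10.98 to 9.69, 9.64 and 9.81 (limma adjusted p = 1.9e-06). Cth is also in this list, and Ndrg1 fell by 0.57. Eif2ak3 (PERK), the kinase that signals from the endoplasmic reticulum to ATF4, rose by 0.72. Atf4 itself fell by 0.20 (limma adjusted p = 0.0091). Its list was chosen for known links to ATF4, and 9 of its 27 genes with a promoter window held TGATGNAA. Of these 9, Chac1 and Asns fell, Atf3 and Fgf21 rose, and the other 5 (Trib3, Nupr1, Herpud1, Jdp2 and Vldlr) were not called.

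In amino acid sensing by mTORC1, 5 of 31 genes rose and 2 fell (median 0.032). The share called was 22.6%, against 19.8% of all genes. Of the 31, 30 lay above the median signal, where 34.7% and 26.8% of all genes were called in the ranges given above. Lamtor4, of the lysosomal anchor for mTORC1, rose by 0.39, while Mios, of the activating GATOR2 complex, rose by 0.28 and Nprl2, of the inhibiting GATOR1 complex, rose by 0.27. Depdc5, another GATOR1 subunit, fell by 0.31. Of 17 cytosolic aminoacyl-tRNA synthetases, which load amino acids onto tRNA, 11.8% were called, against 19.8% of all genes. All 17 lay above the median signal, where 34.7% and 26.8% of all genes were called in the ranges given above. Cars fell by 0.23 and Lars by 0.21. In limma's test 0 of the 17 rose, where 9.66% of all genes were called higher. At an unadjusted p under 0.05, 0 were higher and 4 lower, beside 2978 higher and 3114 lower of all 19938 genes.

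**Figure D5:**
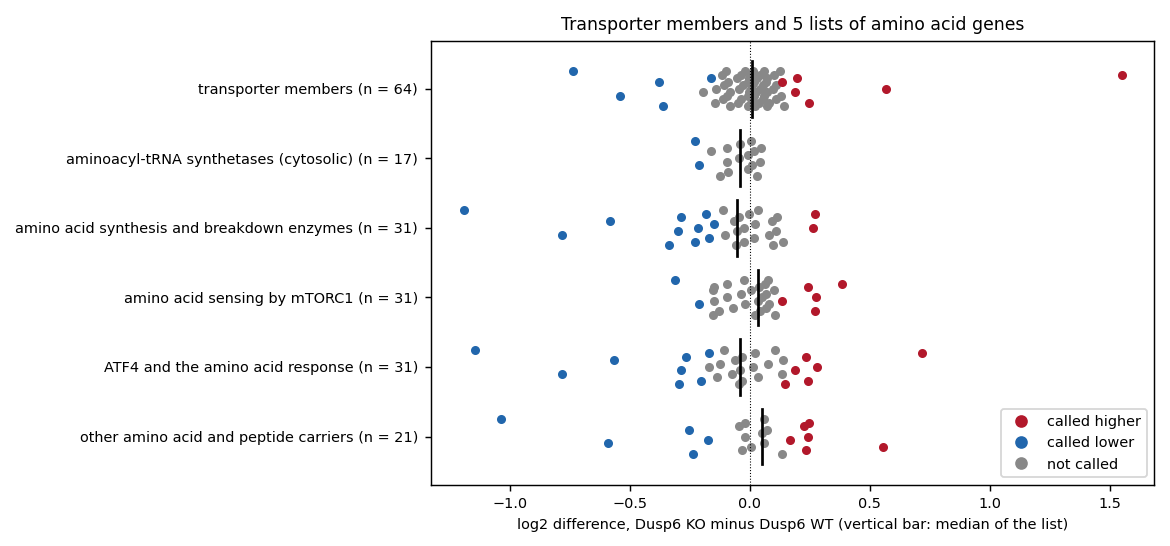
Log2 difference (Dusp6 KO minus Dusp6 WT) of the 64 transporter members and of 5 lists of amino acid genes, each point 1 gene, red where called higher and blue where called lower; vertical bars are medians. Points lie on both sides of 0 in every list. In the synthetase list 0 of the 17 genes are called higher, against 9.66% of all genes tested.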

How the data were processed

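The deposited values are log2 signals, 1 per probe set and array, made by the authors with RMA and Partek 6.5 per the submitters' processing notes. RMA corrects background, equalises arrays and summarises probes. The RMA settings are not given in the sources used. The values show the log2 scale. Array medians lay between 8.38 and 8.42. RMA signals tend to understate fold changes of dim and very bright genes.

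Of 35556 probe sets, 21789 had 1 symbol in the platform annotation, 1621 several and 12146 none. The probe set of highest mean stood for each gene, which mattered for 2 members. Genes (19938) were compared by genotype over the 6 arrays using the limma package (version 3.58.1, R version 4.3.3) with empirical Bayes moderation and Benjamini-Hochberg adjustment over all genes. The procedure was tested on simulated data. Lists are described by counts and medians. Alternatives were other scalings, filters on dim genes, another probe set rule, every probe set tested, a trend and robust fit, a replicate block and each array left out.

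The members and lists were chosen with earlier results of these data known. Values by array are given for called members and for Slc3a2, Slc7a5, Slc7a11, Slc1a5, Slc38a1 and Slc38a2, and for the brightest member of each family group. Lists are represented by up to 4 called genes of each list with the largest differences. Array values of Slc43a1, and other genes named, were chosen after their values were seen. Arrays carry no read depth, so precision rests on their number (median SE 0.051).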

Additional observations from a re-analysis of the deposited data

How the results depend on the processing

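Over the 14 alternatives run, members called higher numbered 4 to 8 against 6 reported, and members called lower 3 to 8 against 5. Centring each array on its median gave 8 lower, and testing every probe set gave 3 lower. With any 1 array left out, 4 to 6 were called higher and 4 to 6 lower. Slc1a5, Slc7a6, Slc38a1, Slc43a2 and Slc6a9 kept their call in all 14, and Slc7a11 and Slc36a4 in the 12 that tested them, since both filters on dim genes removed these genes. Slc38a10 lost its call in 10 alternatives (limma adjusted p up to 0.15), Slc7a5 in 7 (up to 0.12) and Slc1a4 in 1. Slc38a9 lost its call in 2 and, with its sign reversed, in 1 more. The reversals were Slc38a9 at −0.022 with the mean of its probe sets and Slc38a2, which was not called, at −0.0015 with centred arrays. The cause was not tested except for Slc38a9, whose probe sets differ in sign. Members not called as reported but called elsewhere included Slc38a6, Slc6a7, Slc43a1, Slc6a6, Slc7a7, Slc3a2 and Slc6a13. Replicate numbers are shared by the genotypes. Deviations of same-numbered arrays correlated at 0.0098, −0.12 and 0.053, within the −0.15 to 0.13 of arrays with other numbers. Such values cannot tell whether a number also marks a shared mouse, culture or day, and the labels do not say. With the replicate block, 9 members were called, all among the 11 reported, and Slc7a5 (adjusted p = 0.071) and Slc38a10 (adjusted p = 0.089) were not. Over all genes, 1491 to 2189 were called higher and 1512 to 2435 lower, against 1926 and 2028 in the main fit. Over the distinct genes of the 5 pathway lists, 12 to 20 were called higher and 18 to 30 lower, against 18 and 24. Each of these counts was within 1.5 times that of the main fit. The number of arrays limits the precision, and no signal was tested against background.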

Other observations

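Carriers of amino acids and peptides outside the 7 prefixes were measured for 21 genes, of which 6 rose and 5 fell (median 0.052; limma, adjusted p under 0.05). The share called was 52.4%, against 19.8% of all genes tested. Of the 21, 12 lay above the median signal, where 34.7% and 26.8% of all genes were called in the ranges given above. Below the median, 5.42% and 12.4% of all genes were called. The mitochondrial carrier Slc25a13 (citrin), which exchanges aspartate for glutamate, fell by 1.04, from 8.82, 8.69 and 8.62 on the WT arrays to 7.84, 7.46 and 7.72 on the KO arrays. Its partner isoform Slc25a12 (aralar) differed by 0.13 and was not called (limma adjusted p = 0.090). Slc25a18, a mitochondrial glutamate carrier, fell by 0.59, Slc15a2 fell by 0.25 and the ornithine carrier Slc25a15 fell by 0.23.

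Carriers of the lysosome were among those that rose. The peptide and histidine carrier Slc15a3 rose by 0.56, from 9.05, 9.06 and 9.19 to 9.66, 9.54 and 9.77. The cystine exporter Ctns rose by 0.25, the cationic amino acid exporter Slc66a1 by 0.24 and Cln3 by 0.23. For Ctns the WT and KO arrays overlapped, and its call was near the threshold (limma adjusted p = 0.044). Slc15a4, another lysosomal carrier of this kind, differed by 0.0040. Among the 64 members, the lysosomal carrier Slc36a1 was not called, and the probe sets of Slc38a9 moved in opposite directions. Slc25a2 (0.23) and Slc17a7 (0.17) were also called higher in this list and are not part of the lysosomal grouping. Lysosomal carriers were grouped after their values were seen, so this is a description with no test of the group.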
